A study of Mus musculus with 9 samples.

Results

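The interferon response genes Stat2, Irf1, Irf7, Irf9, Isg15, Bst2, Ifitm1 and Ifitm3, together with Ly6a, were followed across cultured mouse embryonic stem (ES) cells. They were taken by gene name, which gave 9 genes on 10 rows of 24044 named rows, since Ifitm3 stands on 2 rows. Of the 9 genes, 7 reached 1 FPKM in at least 3 libraries and entered a fit over 12711 rows, and Irf7 and Isg15 did not. FPKM is a level of expression scaled to transcript length and to library size. The genes were picked for how their FPKM varied between conditions and lines in these same data, so their values are a description and carry no test.

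RNA was sequenced from the lines v6.5, Oct4 GiP and E14, each grown in Paused, 2i and Serum conditions, and every line was sequenced once in every condition (9 libraries). Paused cells received INK128, an inhibitor of the growth kinase mTor, at 200 nM for 2 weeks, and the study compared this state with 2i and Serum. 2i commonly stands for a pair of inhibitors, against MEK and GSK3, but neither its composition nor the medium of the Paused cells is labelled. Cells of all groups sat on gelatin for 2 weeks at passages 20 to 23, and Oct4 GiP carries a reporter of the pluripotency gene Oct4. With 1 library per line and condition, a condition is replicated only over different lines, and whether lines respond differently cannot be tested.

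Interferons are secreted proteins that warn cells of infection. Type I interferons act through the receptor chains Ifnar1 and Ifnar2 and the kinases Jak1 and Tyk2, which activate Stat2. Stat2 and Irf9 are parts of a complex, ISGF3, that binds the interferon-stimulated response element (ISRE) in promoters, and interferon gamma acts through another element, the gamma-activated site (GAS). ES cells are known for a weak interferon response and for high levels of a few interferon-stimulated genes such as the Ifitm genes without any infection. Ly6a encodes Sca-1, a surface protein of blood stem cells and endothelium that interferon raises in blood cells.

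Promoter sequence was set beside the expression values, because many interferon-stimulated genes are known to respond through an ISRE. RefSeq windows on GRCm38.p6, from 250 bases before to 50 after each gene's start, were matched for 8 of the 9 genes, 10 windows in all. Ly6a had no window, so its promoter was not searched. The ISRE was searched on both strands as GAAA, any 2 bases and GAAA, and the GAS as TTC, any 3 bases and GAA. An ISRE match stood in 4 of the 10 windows, those of Stat2, Isg15, Bst2 and Ifitm3, against 3.44% of 32851 windows of the same length over all genes. A GAS match stood in 3 of the 10 windows, those of Irf1, Bst2 and Ifitm3, against 8.30% of all windows. Below are the 250 bases before the start of Stat2 (chr10:128270248-128270497, plus strand), Isg15 (chr4:156200819-156201068, minus strand) and Bst2 (chr8:71537473-71537722, minus strand), and the 27 bases that hold both matches of Ifitm3 (chr7:141010716-141010742, minus strand). They are shown because these are the windows with an ISRE match, 5′ to 3′ on the gene's strand, with the matches in capitals.
Stat2: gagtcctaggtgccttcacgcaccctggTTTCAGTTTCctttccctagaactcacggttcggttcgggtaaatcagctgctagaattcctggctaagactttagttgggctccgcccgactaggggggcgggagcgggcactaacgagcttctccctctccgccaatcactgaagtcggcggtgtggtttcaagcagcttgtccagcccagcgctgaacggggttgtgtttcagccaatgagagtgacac
Isg15: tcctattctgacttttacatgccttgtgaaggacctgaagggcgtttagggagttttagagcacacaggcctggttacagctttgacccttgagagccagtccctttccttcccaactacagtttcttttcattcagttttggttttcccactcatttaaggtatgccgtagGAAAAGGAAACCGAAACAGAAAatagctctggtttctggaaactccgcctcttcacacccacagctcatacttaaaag
Bst2: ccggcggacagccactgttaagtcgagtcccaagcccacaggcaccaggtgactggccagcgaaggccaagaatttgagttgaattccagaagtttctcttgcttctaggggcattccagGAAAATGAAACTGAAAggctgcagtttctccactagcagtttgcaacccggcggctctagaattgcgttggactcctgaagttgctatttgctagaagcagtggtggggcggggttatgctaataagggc
Ifitm3: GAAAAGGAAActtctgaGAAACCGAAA
The Stat2 match began 222 bases before the start and lay on the other strand. Isg15 held 3 overlapping matches that began 78, 72 and 66 bases before its start, and Bst2 held 2 overlapping matches at 130 and 124 bases. The matches of Ifitm3 began 2 and 19 bases past its start, within the transcribed part. A match is a run of letters and not a measured binding site.

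Summed FPKM ran from 1451983 to 2133969 per library, 11709 to 12112 named rows reached 1 FPKM, and the depth in reads is unknown. The sum of 10 ES cell markers, mostly Dppa5a and Pou5f1, was high in every library. It was 6340 to 6815 FPKM in Paused, 4109 to 4892 in 2i and 4386 to 5815 in Serum. The v6.5 Serum library stood apart, with the lowest value of the 9 libraries for Nanog (42.8 FPKM), Zfp42 (99.8), Esrrb (25.2) and Klf4 (12.2). Sox2 was also lowest there (189 FPKM). Not all markers went this way, since Utf1 (719 FPKM) was the highest of the 9 libraries and Tdgf1 (515) the highest in Serum. The part of these marker differences in the values below was not tested. Summed trophoblast markers (8 genes, 1 under 1 FPKM everywhere, none at 0 in all libraries) were 7.57 to 24.7 FPKM in Paused, 14.8 to 23.2 in 2i and 46.8 to 281 in Serum, the highest in E14. The sum in E14 Serum was mostly the keratins Krt8 (161 FPKM) and Krt18 (108). Tfap2a was instead higher in every 2i library than in any other, and Gata3 was highest in v6.5 2i. The authors also deposited FPKM multiplied by a constant per library of 1.81 to 3.74. On that scale the median over all tested genes stood at -0.88 (log2) in Paused against Serum, -0.33 in 2i against Serum and -0.56 in Paused against 2i, against -0.011, 0.017 and -0.033 in FPKM. In bulk RNA, fewer cells of a type and less RNA per cell cannot be told apart.

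**Figure D1:**
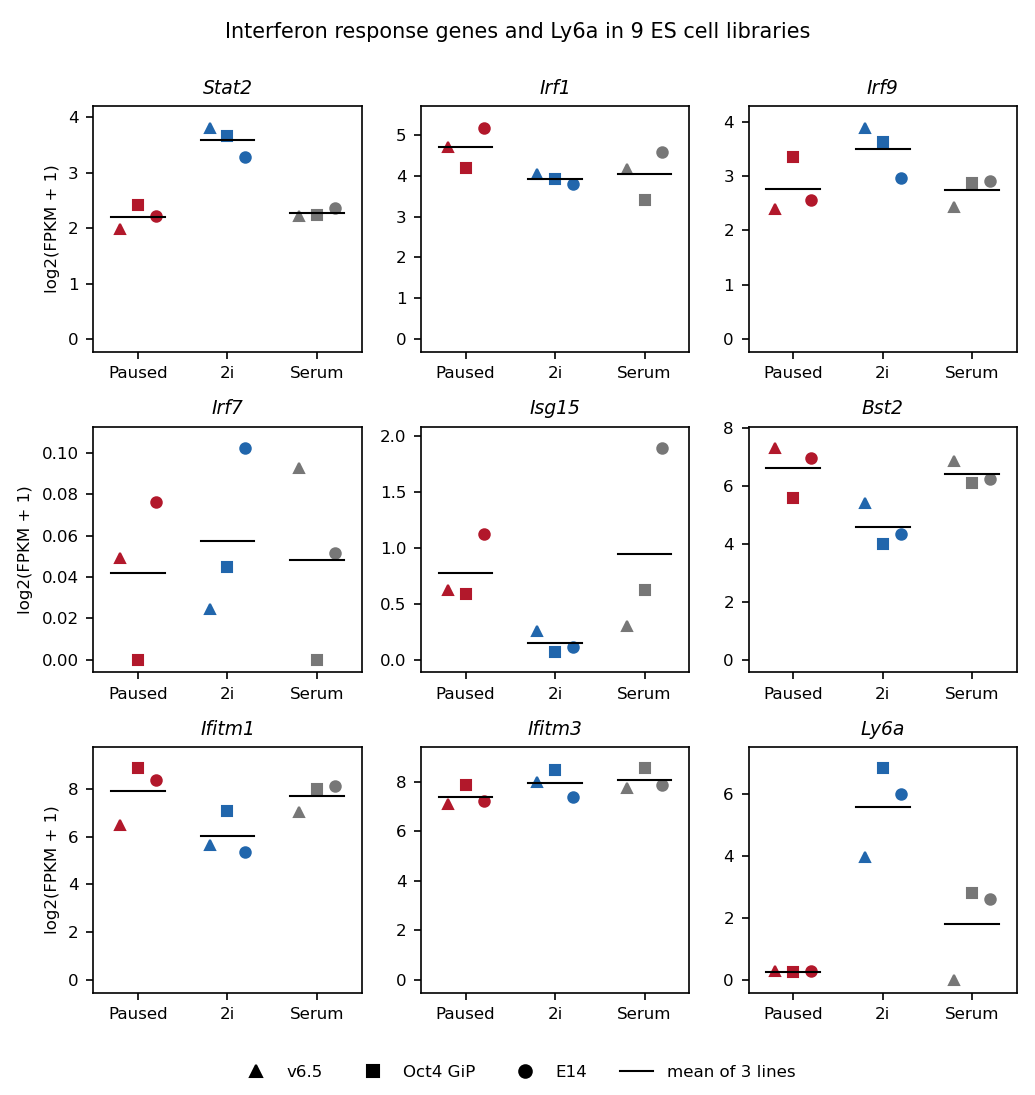
Level of each gene in each library, as log2(FPKM + 1), by condition, with a symbol per line and a bar at the mean of 3 lines; each panel has its own axis. Stat2 and Ly6a lie higher in all 3 2i libraries than in any other library, and Bst2 lies lower in 2i than in any other library. Irf7 is at most 0.0736 FPKM, and Ifitm3 is the main row.

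Of the regulators, Stat2 was highest in 2i, Irf9 tended the same way and Irf1 did not. Stat2, on chromosome 10 (128270559 to 128292849, GRCm38), is the STAT protein of the type I pathway. Its FPKM was 2.98, 4.32 and 3.67 in Paused v6.5, Oct4 GiP and E14 cells, 13.1, 11.6 and 8.77 in 2i, and 3.67, 3.74 and 4.16 in Serum. The 2i libraries did not overlap the others, while the Paused libraries lay on both sides of Serum. On the log2(FPKM + 1) scale, used for every difference below and known to understate the change of low genes, the mean difference over 3 lines was 1.31 ± 0.35 (SD) in 2i against Serum. In Paused against Serum it was -0.07 ± 0.21, and in Paused against 2i -1.38 ± 0.40.

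Irf9 (chromosome 14, 55603571 to 55610030) encodes the DNA-binding part of ISGF3. It had 4.26, 9.16 and 4.86 FPKM in Paused v6.5, Oct4 GiP and E14 cells, 13.8, 11.3 and 6.80 in 2i, and 4.36, 6.33 and 6.52 in Serum. In FPKM the 2i and Serum libraries did not overlap, but the gap between them, set by the E14 libraries, was narrow. The difference lay in v6.5 and Oct4 GiP, and in the authors' scaled values E14 2i lay below E14 Serum. The 2i against Serum difference was 1.47 in v6.5, 0.75 in Oct4 GiP and 0.05 in E14, a mean of 0.76 ± 0.71 (SD, n = 3). The order of the lines was v6.5 above E14 in 2i and E14 above v6.5 in Paused and Serum.

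Irf1 (chromosome 11, 53770014 to 53778374) is a transcription factor that responds to interferon gamma through a GAS, and its window held a GAS match 90 bases before the start. It had 25.2, 17.3 and 35.2 FPKM in Paused v6.5, Oct4 GiP and E14 cells, 15.3, 14.1 and 12.8 in 2i, and 16.9, 9.60 and 23.0 in Serum. The 2i libraries sat close together, and in Paused and Serum the lines kept the order E14, v6.5, Oct4 GiP. The Paused against Serum difference was 0.65 ± 0.13 (SD, n = 3) in FPKM, above 0 in all 3 lines, but -0.25 in the authors' scaled values, so its direction depends on the scale. In 2i against Serum the lines disagreed, with 0.51 in Oct4 GiP, -0.13 in v6.5 and -0.79 in E14. In FPKM every Paused library lay above every 2i library, and the Paused against 2i difference was 0.78 ± 0.56 (SD, n = 3). The authors' constant was 1.99 for Oct4 GiP Paused and 2.45, 2.76 and 3.17 for v6.5, Oct4 GiP and E14 in 2i. On that scale Oct4 GiP Paused lay below every 2i library, so the groups overlapped. Irf7 (chromosome 7, 141262706 to 141266481), the factor that amplifies type I interferon production, was at most 0.0736 FPKM in any library and listed at 0 in Oct4 GiP Paused and Oct4 GiP Serum. A listed 0 can be a failed estimate here, since Eef1a1, which every cell uses, is listed at 0 in all 9 libraries.

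Among the effectors, Bst2 and Ifitm1 were lowest in 2i, opposite to Stat2. Bst2 (chromosome 8, 71534255 to 71537456) encodes tetherin, which holds budding viruses at the cell surface. Its FPKM was 156, 46.0 and 123 in Paused v6.5, Oct4 GiP and E14 cells, 41.1, 14.99 and 19.1 in 2i, and 115, 67.9 and 74.6 in Serum. In FPKM every 2i library lay below every Paused and Serum library, and v6.5 was the highest line in each condition. In the authors' scaled values Oct4 GiP Paused lay below v6.5 2i. The difference was -1.83 ± 0.33 (SD, n = 3) in 2i against Serum and 2.03 ± 0.55 in Paused against 2i. In Paused against Serum the lines split, with 0.44 in v6.5, -0.55 in Oct4 GiP and 0.71 in E14, and the mean of 0.20 in FPKM was -0.73 in the authors' scaled values.

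Ifitm1 (chromosome 7, 140967221 to 140969825) encodes a membrane protein that blocks virus entry and is a known surface marker of early germ cells, also called fragilis 2. It had 88.1, 463 and 331 FPKM in Paused v6.5, Oct4 GiP and E14 cells, 50.1, 134 and 40.5 in 2i, and 131, 252 and 278 in Serum. Within each line 2i was the lowest condition, yet the groups overlapped, since Oct4 GiP in 2i lay above v6.5 in Paused and Serum. The difference was -1.68 ± 0.96 (SD, n = 3) in 2i against Serum and 1.86 ± 1.10 in Paused against 2i. In Paused against Serum it was -0.56 in v6.5, 0.87 in Oct4 GiP and 0.25 in E14, with a mean of 0.19 in FPKM and -0.74 in the authors' scaled values.

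Ifitm3 (chromosome 7, 141009586 to 141010770), called fragilis, restricts virus entry in endosomes and marks germ cell precursors. On its main row it had 135, 235 and 147 FPKM in Paused v6.5, Oct4 GiP and E14 cells, 252, 357 and 165 in 2i, and 215, 369 and 232 in Serum. Oct4 GiP was the highest line in each condition, and within each line Paused was the lowest. The Paused against Serum difference was -0.66 ± 0.01 (SD, n = 3), nearly the same in all 3 lines although the groups overlapped, and 2i against Serum was -0.10 ± 0.36. The other Ifitm3 row held 0.165 to 1.39 FPKM and was not tested. Ifitm2, a close relative on the same chromosome, had 312, 658 and 494 FPKM in Paused v6.5, Oct4 GiP and E14 cells, 466, 612 and 440 in 2i, and 292, 528 and 489 in Serum, so 2i was its lowest condition in E14 and not in the other lines. Reads of these near copies may have been split between them, which makes each value uncertain.

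Isg15 (chromosome 4, 156199424 to 156200818) encodes a ubiquitin-like protein that is joined to other proteins in an interferon response. Its FPKM was 0.540, 0.501 and 1.17 in Paused v6.5, Oct4 GiP and E14 cells, 0.193, 0.0448 and 0.0832 in 2i, and 0.235, 0.544 and 2.72 in Serum. All 2i values lay below all Paused and Serum values, and E14 was the highest line in Paused and Serum. The library with the highest value, E14 Serum, also had the highest Krt8 (161 FPKM). Its summed trophoblast markers, mostly Krt8 and Krt18, were the highest too, and their part in the result was not tested. The levels are low, and only 2 of the 9 libraries reached 1 FPKM.

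Ly6a (chromosome 15, 74994877 to 74998031) had the widest range of the 9 genes on the log2(FPKM + 1) scale. It had 0.216, 0.184 and 0.225 FPKM in Paused v6.5, Oct4 GiP and E14 cells, 14.8, 114 and 63.0 in 2i, and 0, 6.02 and 5.09 in Serum. The Paused libraries lay within a narrow band of at most 0.225, the 2i libraries stood above all others, and v6.5 was the lowest line in 2i and Serum and was listed at 0 in Serum. The 2i against Serum difference was 3.98 in v6.5, set against a listed 0, 4.03 in Oct4 GiP and 3.39 in E14. Without the v6.5 Serum library, the additive fit of condition and line gave 3.30, against 3.80 with it. That fit also draws on the Paused and v6.5 libraries, so 3.30 is not the mean of the Oct4 GiP and E14 differences. Paused against Serum was -2.57 in Oct4 GiP, -2.31 in E14 and 0.28 in v6.5, where both values are near 0. Paused against 2i was -5.33 ± 1.48 (SD, n = 3), and with a pseudocount of 0.1 in place of 1 it was -7.27, which shows how far the size rests on that choice.

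Blood and endothelial cells also carry Ly6a, and their markers were low in all 9 libraries. The 8 blood markers summed to 12.6 to 17.97 FPKM in Paused, 8.70 to 23.4 in 2i and 11.7 to 17.7 in Serum, mostly Cd68, with 6 of 8 under 1 FPKM everywhere. Ptprc, the common leukocyte antigen, was listed at 0 in all 2i libraries and reached at most 0.109 FPKM. The 6 endothelial markers summed to 4.43 to 6.66 FPKM in Paused, 3.68 to 5.54 in 2i and 5.91 to 8.78 in Serum, and Cdh5 was listed at 0 in all 2i libraries. Adgre1, a macrophage marker, and the endothelial marker Emcn were listed at 0 in all 9 libraries. Other markers of these lists had their highest value in a 2i library. These were Cd68 (17.1 FPKM) and Cd3e (6.20) in v6.5, Tek (4.63) in Oct4 GiP and Kdr (1.445) in E14. Esam was lower in 2i, at most 0.515 FPKM, than in any other library. The part of blood and endothelial cells in the Ly6a values was not tested. The 11 feeder fibroblast markers summed to 13.7 to 29.5 FPKM in Paused, 18.7 to 52.7 in 2i and 18.7 to 35.0 in Serum. The sum was mostly Fbln1, at most 50.4 FPKM in E14 2i, and 7 of 11 stayed under 1 FPKM everywhere. Pdgfrb was higher in 2i (2.36, 2.75 and 1.36 FPKM in v6.5, Oct4 GiP and E14) than in any other library. Col1a1 and Thy1 were instead highest in Serum within each line. The part of feeder cells in the Ly6a values was not tested.

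**Figure D2:**
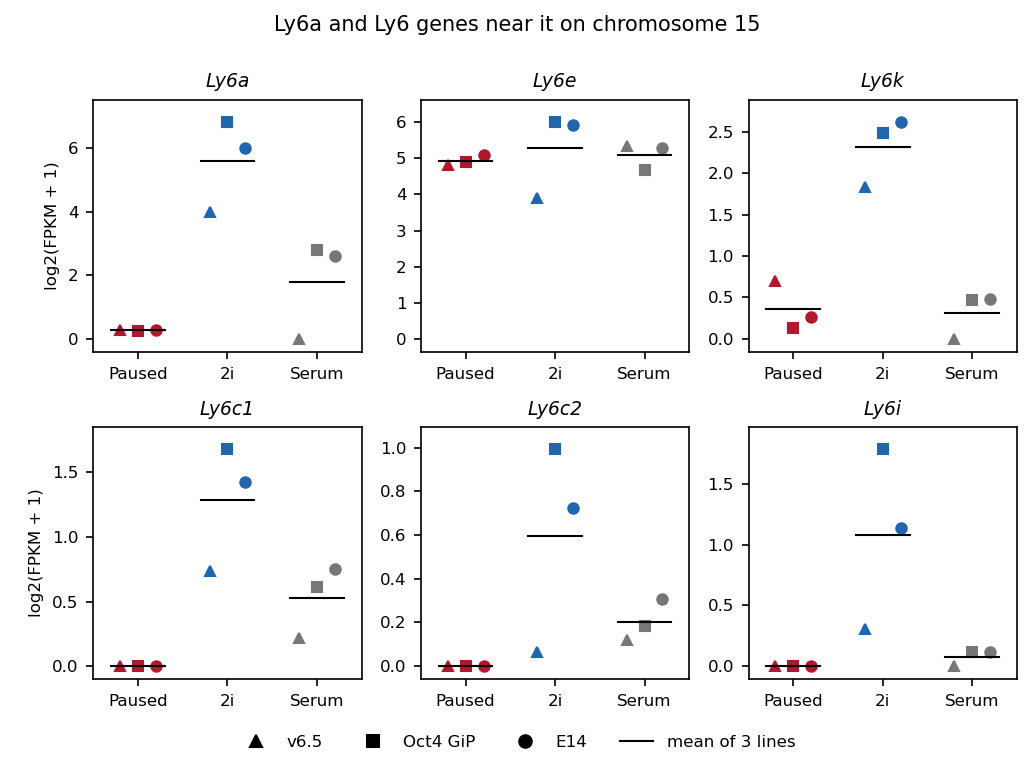
Ly6a and 5 further Ly6 genes of the same stretch of chromosome 15, as log2(FPKM + 1) in each library, with a symbol per line and a bar at the mean of 3 lines; each panel has its own axis. Ly6k, like Ly6a, is higher in all 2i libraries than in any other, and v6.5 is the lowest line in 2i in all 6 panels.

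Other Ly6 genes, which encode small surface proteins held by a lipid anchor, lie next to Ly6a. In the Ly6 family list 4 of 17 genes were tested, and 2 of the 4 rose in 2i against Serum, where 40.6% of all rows were called in either direction. Ly6k (74796874 to 74799986) had 0.619, 0.0972 and 0.198 FPKM in Paused v6.5, Oct4 GiP and E14 cells, 2.57, 4.60 and 5.17 in 2i, and 0, 0.383 and 0.398 in Serum. Its log2 fold change in 2i against Serum was 2.00 ± 0.26 (SE; limma-trend, adjusted p = 0.0029). Ly6k reached 1 FPKM in the 2i libraries alone. It entered the fit only through the condition where it was high, so its call is a description. Ly6g6e, on chromosome 17, rose by 1.92 ± 0.56 (SE; limma-trend, adjusted p = 0.036), but by 3.29 in v6.5, 2.45 in Oct4 GiP and 0.02 in E14, and the call was lost without any of 7 single libraries, E14 2i and E14 Serum excepted. The nearest neighbours were chosen after their values were seen. Ly6c1 was listed at 0 in all 3 Paused libraries, had 0.670, 2.21 and 1.69 FPKM in 2i v6.5, Oct4 GiP and E14 cells, and 0.161, 0.529 and 0.687 in Serum. Ly6i was listed at 0 in all 3 Paused libraries, had 0.237, 2.46 and 1.19 FPKM in 2i, and 0, 0.0809 and 0.0841 in Serum. In both, as in Ly6a, the 2i order was Oct4 GiP, E14, v6.5. These genes are close copies of Ly6a, so some of their reads may belong to it. Ly6e (74955051 to 74959905) had 27.0, 28.7 and 33.0 FPKM in Paused v6.5, Oct4 GiP and E14 cells, 13.8, 63.7 and 59.1 in 2i, and 39.9, 24.5 and 37.8 in Serum, so 2i was its highest condition in Oct4 GiP and E14 and its lowest in v6.5.

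**Figure D3:**
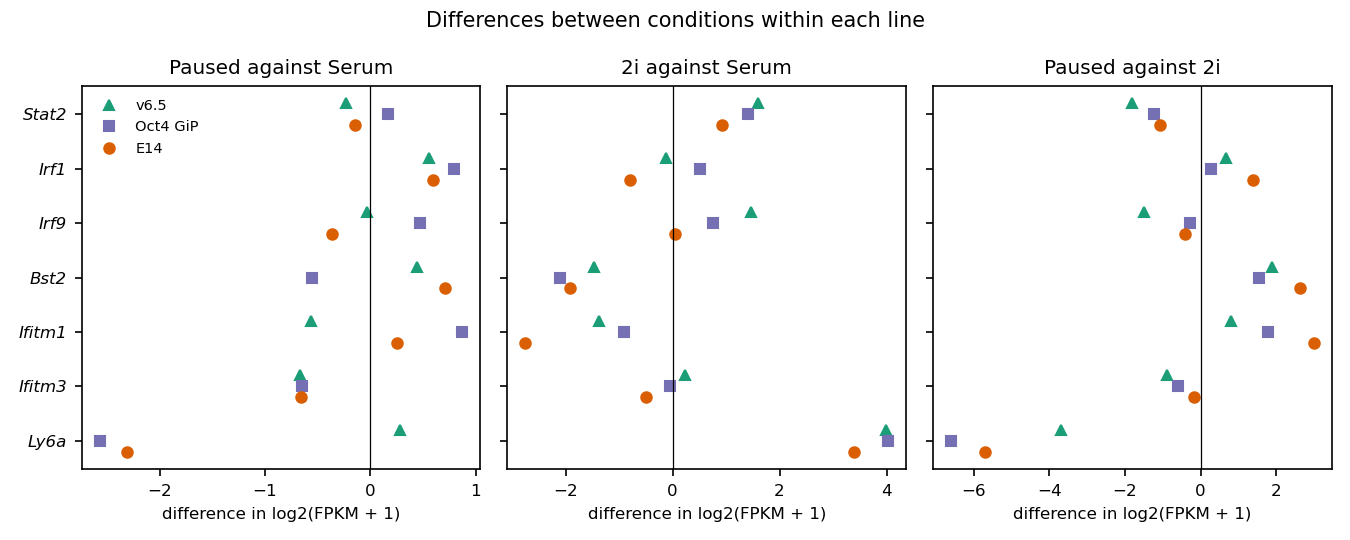
Difference in log2(FPKM + 1) between conditions within each line, for the 7 tested genes; each point is a line and each panel has its own axis. The 3 lines lie on the same side of 0 for Stat2, Bst2, Ifitm1 and Ly6a in 2i against Serum, and for Irf1 and Ifitm3 in Paused against Serum, where Irf1 turns below 0 on average in the authors' scaled values.

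Set against the whole table, the number of these genes past the threshold (limma-trend, adjusted p of 0.05 over all 12711 rows) was 1 of 7 in Paused against Serum, where 18.2% of all rows were called. It was 4 of 7 in 2i against Serum, where 40.6% of all rows were called, and 6 of 7 in Paused against 2i, where 44.4% were called. Libraries did not overlap for 0 of 7 genes in Paused against Serum (38.6% of all rows), 4 of 7 in 2i against Serum (47.9%) and 4 of 7 in Paused against 2i (51.9%). The genes were chosen on these same contrasts, so nothing is read from these counts.

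The other genes of the pathway were taken from 10 lists, 168 genes in all, of which 163 were in the table and 78 were tested. Like the 9 genes, the lists were chosen with results of these data known. Interferon ligands were not tested: all 21 were under 1 FPKM in every library, 14 were listed at 0 in all 9, and the highest value was 0.227 FPKM of Ifnz. The receptor chains of type I interferon, named after their values were seen, were present in every condition. Ifnar1 averaged 10.9 ± 1.53 FPKM in Paused, 8.97 ± 0.971 in 2i and 8.60 ± 1.26 in Serum (SD, n = 3). Ifnar2 averaged 6.34 ± 0.352 FPKM in Paused, 6.06 ± 0.902 in 2i and 6.58 ± 0.290 in Serum (SD, n = 3). Of 65 interferon-stimulated effectors in the table, 31 stayed under 1 FPKM in every library.

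In 2i against Serum the pathway genes were called about as often as the table as a whole: of 78 tested, 22 rose and 8 fell, 38.5% in all, beside 40.6% of all rows. The median log2 fold change was 0.17, and 0.017 over all rows. In the authors' scaled values the split was 15 higher and 21 lower, beside 1240 higher and 4538 lower over all rows. No direction of the lists is read from it. Zc3hav1, the zinc-finger antiviral protein that binds viral RNA, averaged 29.0 ± 5.57 FPKM in 2i and 4.90 ± 2.55 in Serum (SD, n = 3), a log2 fold change of 2.42 ± 0.23 (SE; limma-trend, adjusted p = 0.0014). Ube2l6, the enzyme that carries Isg15 to its targets, averaged 39.2 ± 13.2 FPKM in 2i and 8.66 ± 1.62 in Serum, a change of 2.02 ± 0.28 (SE; limma-trend, adjusted p = 0.0034), while Isg15 itself stayed under 0.193 FPKM in 2i. Mavs, the adaptor of the RNA sensors, averaged 18.8 ± 2.27 FPKM in 2i and 6.67 ± 1.42 in Serum, a change of 1.38 ± 0.15 (SE; limma-trend, adjusted p = 0.0017). Tmem173, which encodes the DNA-sensing adaptor STING, had 3.96, 1.56 and 1.33 FPKM in 2i v6.5, Oct4 GiP and E14 cells, against 0.581, 0.247 and 0.324 in Serum, a change of 1.17 ± 0.21 (SE; limma-trend, adjusted p = 0.0071). Mavs and Tmem173 were the 2 genes of 8 tested in the sensing list that rose, and none fell. Tmem173 reached 1 FPKM in the 2i libraries alone. It entered the fit only through the condition where it was high, so its call is a description.

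Irf5, a factor related to Irf7, rose by 1.09 ± 0.20 on the log2 scale in 2i against Serum (SE; limma-trend, adjusted p = 0.0083). Of 8 tested receptor and kinase genes, Ifnlr1, a chain of the lambda receptor, rose by 0.77 ± 0.14 and the kinase gene Jak2 by 0.56 ± 0.12 (SE), and none fell. Outside 2i, Irf5 reached 1 FPKM only in v6.5 Paused (1.36), Ifnlr1 only in E14 Paused (1.08) and Jak2 only in v6.5 and E14 Serum (1.23 and 1.51). Their entry into the fit thus also rested on their 2i values. Of 8 negative regulators, Ptpn6, Trim24 and Pias4 rose, by 0.57, 0.45 and 0.41. Of 28 effectors, 9 rose and 3 fell, and none of the 3 other Ifitm genes tested was called. Those that rose include Xaf1, a pro-apoptotic gene, with 2.08 ± 0.30, and Oas1a, a synthase of the 2-5A signal that activates RNase L, with 1.98 ± 0.26 (SE; limma-trend, adjusted p = 0.0029). Oas1a has a near copy, Oas1g, so its reads are uncertain.

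The genes that fell in 2i against Serum were led by Gbp2, an interferon-induced GTPase. It had 0, 0.0549 and 0.0306 FPKM in 2i v6.5, Oct4 GiP and E14 cells and 1.23, 4.13 and 16.5 in Serum. Its log2 fold change was -2.51 ± 0.60 (SE; limma-trend, adjusted p = 0.018). Of 14 tested antigen presentation genes 5 fell and 1 rose. Psmb8, a subunit of the immunoproteasome, had 0.0261, 0 and 0 FPKM in 2i v6.5, Oct4 GiP and E14 cells and 1.35, 1.61 and 8.62 in Serum, a log2 fold change of -1.95 ± 0.44 (SE; limma-trend, adjusted p = 0.016). Psmb9, its partner subunit, fell by 1.39 on the log2 scale and H2-K1, a class I heavy chain with close relatives, by 1.16. Tap2, part of the peptide transporter, fell too (limma-trend, adjusted p = 0.019), with 0.361, 0.205 and 0.211 FPKM in 2i v6.5, Oct4 GiP and E14 cells and 1.20, 1.05 and 2.54 in Serum. The calls of Gbp2, Psmb8, Psmb9, H2-K1, Tap2, Jak2, Ptpn6, Trim24, Pias4 and Ly6g6e were lost without the Oct4 GiP Serum library, and those of Gbp2, Psmb8, Tap2 and Jak2 also without E14 Serum, while Zc3hav1, Ube2l6, Mavs, Tmem173, Xaf1, Oas1a, Ly6k, Irf5 and Ifnlr1 were called without any single library. In the authors' scaled values Jak2, Ptpn6, Trim24 and Pias4 were above 0 but not called. Gbp2 and Psmb8 were highest in E14 Serum, the library with the highest summed trophoblast markers (281 FPKM). That sum was mostly Krt8 and Krt18, and the part of keratin-expressing or trophoblast cells was not tested.

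**Figure D4:**
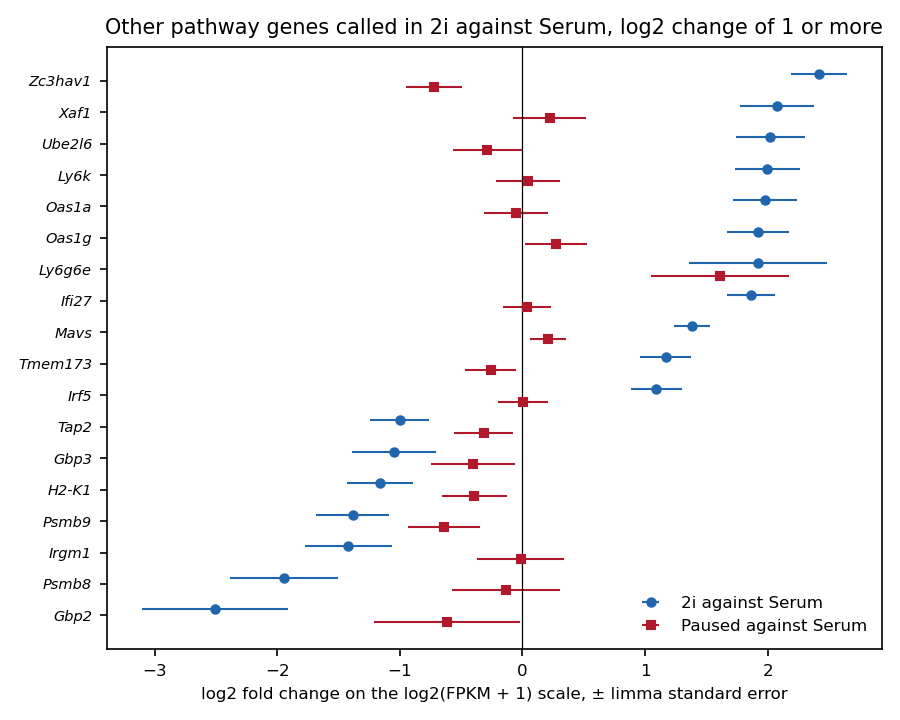
Log2 fold change with its limma standard error for the other pathway genes called in 2i against Serum with a change of at least 1 in either direction (blue circles), with the same genes in Paused against Serum (red squares). Zc3hav1 at 2.42 and Gbp2 at -2.51 are the ends of the 2i range, and in the authors' scaled values both keep their side of 0.

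Few of the pathway genes changed in Paused against Serum. Of 78 tested, 3 rose and 1 fell, 5.13% in all, beside 18.2% of all rows, and the median was 0.020 against -0.011 over all rows. Eif2ak2, which encodes the double-stranded RNA kinase PKR, averaged 390.3 ± 31.2 FPKM in Paused and 267 ± 29.1 in Serum (SD, n = 3). Its log2 fold change was 0.55 ± 0.08 (SE; limma-trend, adjusted p = 0.014) but -0.38 in the authors' scaled values. Znfx1, a helicase-like sensor of viral RNA, rose by 0.52 ± 0.11 (SE) in FPKM and was at -0.30 in the authors' scaled values, and Trim24 rose by 0.39 ± 0.09 (SE) and was at -0.53 there. Pdia3, a chaperone of class I loading, fell by 0.30 on the log2 scale. In the authors' scaled values 50 pathway genes were called lower and 0 higher, beside 9779 lower and 48 higher over all rows. Relative to each library's median 3 were higher and 2 lower, beside 886 higher and 1542 lower over all rows. No pathway gene was called by limma-trend without the v6.5 Paused, Oct4 GiP Paused, E14 Paused or Oct4 GiP Serum library. Without Oct4 GiP 2i 1 was called, without E14 Serum 2 and without E14 2i 13. The whole table moved too: calls over all rows were 38, 16, 38, 12, 1483, 729 and 3223 in these runs, in the same order, against 2311 with all libraries.

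In Paused against 2i, 10 of the 78 pathway genes rose and 24 fell, 43.6% in all, beside 44.4% of all rows. In the authors' scaled values 4 were higher and 40 lower, beside 789 higher and 6922 lower over all rows. Relative to each library's median 14 were higher and 19 lower, beside 3180 higher and 2645 lower over all rows. Paused against 2i and 2i against Serum share the 2i libraries, so the values below are no second line of evidence. Zc3hav1 fell by 3.14 ± 0.23 on the log2 scale (SE; limma-trend, adjusted p = 0.00054), with 1.93, 2.01 and 3.31 FPKM in Paused v6.5, Oct4 GiP and E14 cells and 31.7, 22.6 and 32.7 in 2i. Ube2l6 fell by 2.31 ± 0.28, Tmem173 by 1.43 ± 0.21, Mavs by 1.17 ± 0.15 and Jak2 by 1.01 ± 0.12 (SE). B2m, the light chain of class I molecules, fell by 1.07, with 4.97, 4.23 and 7.29 FPKM in Paused v6.5, Oct4 GiP and E14 cells and 19.5, 12.2 and 7.83 in 2i. Gbp2 rose by 1.89 ± 0.60 (SE; limma-trend, adjusted p = 0.042), Psmb8 by 1.81 ± 0.44 (SE), and H2-Q4 and Erap1, a peptide trimmer, by 0.83 and 0.81. These last 4 calls and that of B2m were lost without the v6.5 Paused library, and those of Gbp2, Psmb8, H2-Q4 and Erap1 also without E14 Paused. Gbp2, Psmb8 and H2-Q4 were not called when the line was left out of the fit either, and H2-Q4 was not called in the authors' scaled values.

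Promoter matches were counted over the called genes as a description. Among pathway genes with a RefSeq window, an ISRE match stood in 3 of 16 that rose in 2i against Serum (18.8%), 4 of 7 that fell (57.1%) and 12 of 41 not called (29.3%). Gbp2 and Erap1 were among those that fell with a match, and Oas1a among those that rose. Over all windows of the other pathway genes the share was 27.6%, against 3.44% of all genes' windows.

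The lines stood in different orders for different genes. Bst2 averaged 104 ± 58.3 FPKM in v6.5, 43.0 ± 26.6 in Oct4 GiP and 72.2 ± 51.9 in E14 (SD over 3 conditions). Ifitm1 averaged 89.6 ± 40.4 FPKM in v6.5, 283 ± 167 in Oct4 GiP and 216 ± 155 in E14. Ifitm3 averaged 201 ± 60.1 FPKM in v6.5, 320.0 ± 74.0 in Oct4 GiP and 181 ± 44.9 in E14. By these means v6.5 was the highest line for Bst2 and the lowest for Ifitm1, and Oct4 GiP was the highest for both Ifitm genes. For Ifitm1 the order changed with the condition, since E14 lay below v6.5 in 2i and above Oct4 GiP in Serum. Stat2 averaged 6.58 ± 5.64 FPKM in v6.5, 6.56 ± 4.38 in Oct4 GiP and 5.53 ± 2.81 in E14. Irf1 averaged 19.1 ± 5.32 FPKM in v6.5, 13.7 ± 3.89 in Oct4 GiP and 23.7 ± 11.2 in E14. Compared within conditions, v6.5 against Oct4 GiP was 1.30 ± 0.50 for Bst2 and -1.58 ± 0.73 for Ifitm1, and Oct4 GiP against E14 was 0.81 ± 0.25 for Ifitm3 (SD, n = 3 conditions).

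**Figure D5:**
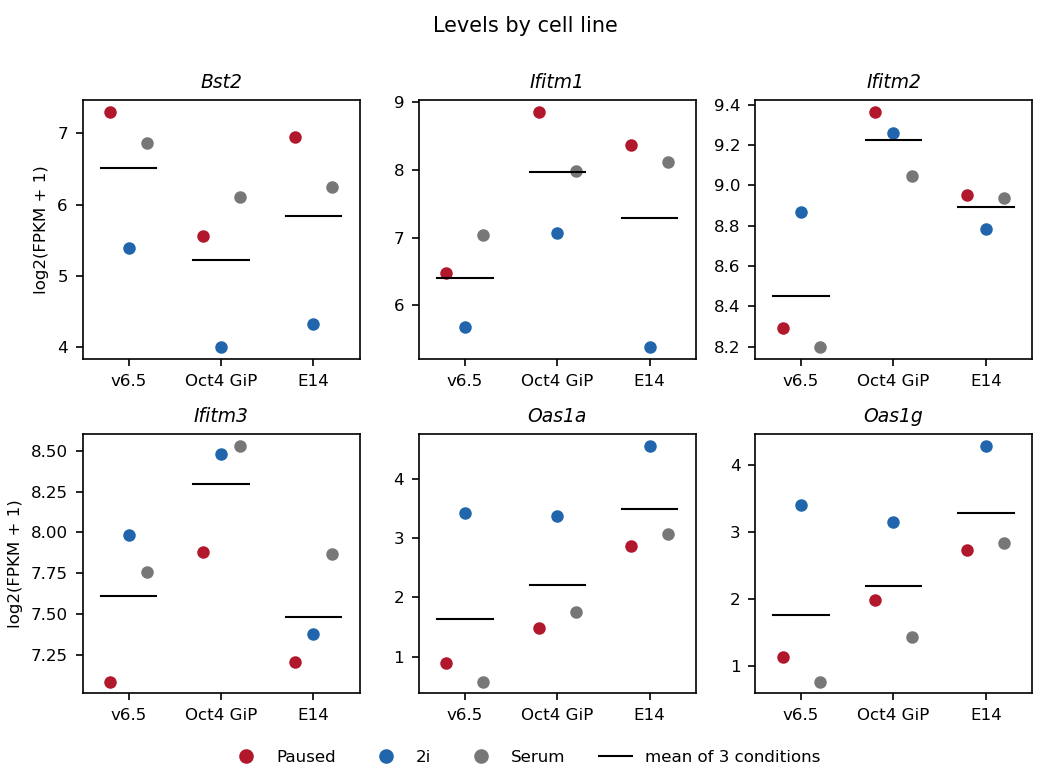
Level by cell line as log2(FPKM + 1), with a colour per condition and a bar at the mean of 3 conditions; each panel has its own axis, which does not start at 0. Bst2 is highest in v6.5 in every condition, and Ifitm1 in v6.5 lies under every Oct4 GiP value. Oas1a and Oas1g are highest in E14.

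Counted against the table, 0 of the 7 tested genes passed the threshold in any line comparison (limma-trend, adjusted p of 0.05), where 2.08% of all rows were called in v6.5 against E14, 0.00787% in Oct4 GiP against E14 and 0.551% in v6.5 against Oct4 GiP. At an unadjusted p of 0.05 the counts were 2 of 7 in v6.5 against E14 (18.5% of all rows), 3 of 7 in Oct4 GiP against E14 (12.9%) and 4 of 7 in v6.5 against Oct4 GiP (15.4%). Libraries of v6.5 and Oct4 GiP did not overlap for Ifitm1 (7.31% of all rows), and those of Oct4 GiP and E14 did not for Ifitm3 (6.88%); for v6.5 and E14 no member was so separated (8.29%). Among the other pathway genes 2 of 78 fell in v6.5 against E14, the near copies Oas1a and Oas1g. Oas1a had 0.853, 9.75 and 0.492 FPKM in v6.5 Paused, 2i and Serum cells, and 6.26, 22.4 and 7.37 in E14, a log2 fold change of -1.86 ± 0.26 (SE; limma-trend, adjusted p = 0.032). Oas1g fell by 1.51 ± 0.25 (SE; limma-trend, adjusted p = 0.044), and its values were higher in E14 in all 3 conditions. No pathway gene was called in Oct4 GiP against E14 or v6.5 against Oct4 GiP by limma-trend, with 14 and 16 of 78 genes at an unadjusted p of 0.05, beside the same 12.9% and 15.4% of all rows. Each line gave 3 libraries that differ in condition, so these comparisons rest on the additive fit. In v6.5 against E14 no pathway gene was called when any single library other than v6.5 2i (2 calls) or E14 2i (3 calls) was left out. Calls over all rows were 93 without v6.5 2i, 197 without E14 2i, 9 to 26 without any other library, and 265 with all.

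The genes whose levels followed each member most closely over the 9 libraries were looked up among 11496 tested genes, by Pearson correlation of log2(FPKM + 1). The libraries share 3 conditions and 3 lines, so these are descriptions. Nearest to Stat2 were Fam102a (r = 0.991), Mfsd2b and Apbb2. Fam102a had 4.26, 5.32 and 4.49 FPKM in Paused v6.5, Oct4 GiP and E14 cells, 32.2, 30.0 and 20.3 in 2i, and 4.21, 4.55 and 6.56 in Serum. Nearest to Ly6a were AI662270 (r = 0.988) and Vpreb1, a chain of the pre-B cell receptor. Nearest to Bst2 were Fam83h (r = 0.961), Fgd5 and Ovol2, and to Ifitm1 Adamtsl5 (r = 0.959), Mta3 and Sema3b. Frmd4a (r = 0.973), Ap4m1 and Mettl22 were nearest to Irf9, Radil (r = 0.923), Snhg17 and D2hgdh to Irf1, and Mrpl57 (r = 0.958), Cox4i1 and Fan1 to Ifitm3.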

How the data were processed

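RNA-seq of 9 libraries of mouse ES cells was analysed. The authors deposited FPKM from Cuffnorm on mm10, per the submitters' processing notes, with 2 columns per library. The deposited normalized expression is a signal equal to FPKM times 1 constant per library, as the values show; no source used here says how the constant was made, or names the aligner, the annotation or the use of strand. All samples carried ERCC spike-in RNA and libraries came from 250 ng of RNA with a directional kit, per the labels' protocols. Counts are not given, so depth is unknown. Of 29801 rows, 5644 without a name (52.8% to 64.0% of summed FPKM) and 113 identical repeats were left out.

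Rows that reached 1 FPKM in 3 libraries or more were fitted with limma-trend (limma 3.58.1, R 4.3.3) on log2(FPKM + 1), an additive fit of condition and cell line over all 9 libraries with 4 residual degrees of freedom, with Benjamini-Hochberg adjustment over 12711 rows and a threshold of 0.05. The line pairs the libraries: deviations from condition means correlated at -0.0008 to 0.401 within a line and at -0.243 to 0.0938 between lines. Labels do not say whether libraries came from separate cultures beyond line and condition, so p-values measure the spread between these libraries.

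The members, lists and tests were chosen with earlier results of these data known. All members were named, and per comparison and list up to 4 called genes of the largest change, the 3 genes most like each member, and the promoters with an ISRE match; some genes within this rule are not reported here. Positions are GENCODE M21 on GRCm38, the mm10 build. Alternatives were another pseudocount, no filter, a minimum of 5 FPKM, the authors' scaled values, median centring, no line block or condition term, and leaving out each library, line or condition.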

Additional observations from a re-analysis of the deposited data

Results flagged for a closer look

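In 3 cases the same contrast lay on opposite sides of 0 in different lines by at least 0.5 (log2) each. Each line has 1 library per condition, so none of these differences was tested. For Bst2 in Paused against Serum, E14 stood at 0.71 and Oct4 GiP at -0.55, a difference of 1.26. For Ifitm1 in Paused against Serum, Oct4 GiP stood at 0.87 and v6.5 at -0.56, a difference of 1.44. For Irf1 in 2i against Serum, Oct4 GiP stood at 0.51 and E14 at -0.79, a difference of 1.31.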

How the results depend on the processing

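No called difference of a member changed sign under any alternative run. With a minimum of 5 FPKM, fewer genes were tested, and 15 pathway genes were called in 2i against Serum (30 at 1 FPKM) and 19 in Paused against 2i (34 at 1 FPKM). In the authors' scaled values 50 were called in Paused against Serum, against 4 in FPKM, while calls over all rows were 9827 and 2311. In v6.5 against E14, with 2 calls, there was 1 with a pseudocount of 0.1, 0 without a filter, 1 in the authors' scaled values and 0 without the condition term; the cause was not tested. Without the replicate block of cell line, 4 pathway genes were called in Paused against Serum, 25 in 2i against Serum and 25 in Paused against 2i, and the pairing changed no count by over 1.5 times. Trim24 in Paused against Serum and Oas1a and Ly6g6e in 2i against Serum were not called without the block. Without a filter on low values, Znfx1 in Paused against Serum, Ly6g6e in 2i against Serum and B2m, Gbp2 and H2-Q4 in Paused against 2i were not called.

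Leaving out single libraries, or whole lines and conditions, gave 8 to 35 calls in 2i against Serum, 16 to 33 in Paused against 2i, 0 to 13 in Paused against Serum, 0 to 3 in v6.5 against E14, 0 in Oct4 GiP against E14 and 0 to 1 in v6.5 against Oct4 GiP. Single libraries that moved a count by over 1.5 times were Oct4 GiP Serum for 2i against Serum (15), and E14 Paused (22) and v6.5 Paused (21) for Paused against 2i. Over all rows these runs gave 2969 calls against 5161 in 2i against Serum, and 3543 and 3952 against 5638 in Paused against 2i. Those for Paused against Serum and v6.5 against E14 stand in the report, and the 1 call in v6.5 against Oct4 GiP came without v6.5 2i. Without the v6.5 line the counts were 17 in 2i against Serum and 21 in Paused against 2i, without Oct4 GiP 8 and 16, and without E14 27 in Paused against 2i. Calls over all rows were 2673 and 3720, 1269 and 2073, and 3925 in these runs. The depth in reads is unknown, so no counting error is given.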
